A study of Homo sapiens with 16 samples.

Results

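The genes described here are 40 that encode chaperones, stress sensors and folding enzymes of the endoplasmic reticulum (ER), chosen by symbol from a list and found as 40 of the 17738 genes in the deposited table. This list and the other gene lists below were chosen with earlier results of these data known, which limits every comparison of their shares with all genes. The 40 genes were followed by RNA sequencing of polyadenylated RNA in H1 cells, a widely used line of human embryonic stem cells that grows as undifferentiated colonies. All cells were kept for 24 h in E7, a defined medium that lacks TGFb family ligand. Of the 8 groups, 4 were cultured without 2-deoxyglucose: E7 alone, E7 with TGFb at 1.74 ng/mL, E7 with Activin A at 100 ng/mL and E7 with NODAL at 100 ng/mL, called E7, E7+TGFb, E7+ActivinA and E7+NODAL. The other 4 groups received the same media with 2-deoxyglucose (2DG) at 3 mM, and each of the 8 groups held 2 libraries. The labels do not say that the 2 libraries of a group came from separate cultures, so p-values here speak of the spread among these samples alone, which may be technical. All cells are of a single line, which limits the groups as a model of other stem cells.

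Proteins that enter the secretory pathway are threaded into the ER through the SEC61 translocon, lose their signal peptide to signal peptidase, receive N-linked sugars and fold with the help of HSP70 and HSP90 chaperones, the lectins calnexin and calreticulin, and protein disulfide isomerases. When unfolded protein accumulates, the sensors IRE1 (the product of ERN1), ATF6 and PERK start the unfolded protein response, in which IRE1 splices the XBP1 mRNA, ATF6 is cut to release a transcription factor, and PERK slows translation and raises ATF4. 2DG is a glucose analogue that hexokinase phosphorylates but glycolysis does not use further, and it also resembles mannose, a sugar of the N-linked glycan precursor. TGFb, Activin A and NODAL signal through SMAD2 and SMAD3, a pathway that keeps human embryonic stem cells undifferentiated.

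A known DNA element of ER chaperone promoters is the ER stress response element (ERSE), bound by ATF6 and XBP1 together with NF-Y. Promoter windows from RefSeq (GRCh38.p14, from 250 bases before to 50 bases after each transcript start) were matched by symbol for 38 of the 40 members, all but PDIA3 and SPCS1, as 49 windows, with more than 1 window for 8 members. Searched as exact letters on both strands, ERSE (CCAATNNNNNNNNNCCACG) was found in 8 of the 38 members, against 25 of all 27305 genes with such a window (0.0916%), and 8 of those 25 are the members. Its second form ERSE-II (ATTGGNCCACG) was found in HYOU1, at 2 positions, and in SDF2L1, so in 2 of 38 members against 19 of 27305 genes (0.0696%). No member held both forms. Among the 11367 genes of the deposited table with such a window, 16 held ERSE (0.141%) and 14 ERSE-II (0.123%). The CCAAT and CCACG parts on their own were common, in 31 and 28 of the 38 members and in 39.7% and 42.1% of all genes, or 42.7% and 56.3% of genes in the table. ERSE is known from ER chaperone promoters, and many members are such genes. Its higher share among the members was therefore built into the choice of genes. A match describes letters only and does not show that a factor binds there, and ERSE is known to tolerate other letters that this search does not find. The matched ERSE sites are shown because they are what the best known members share at their starts. They are written 5′ to 3′ in the direction of the motif, with the fixed letters in capitals and genome positions in GRCh38.p14.
HSPA5, chr9:125241391-125241409: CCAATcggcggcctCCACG
HSP90B1, chr12:103930216-103930234: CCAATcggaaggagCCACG
HSP90B1, chr12:103930321-103930339: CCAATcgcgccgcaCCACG
CALR, chr19:12938384-12938402: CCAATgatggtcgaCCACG
CANX, chr5:179698778-179698796: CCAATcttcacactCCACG
PDIA6, chr2:10812853-10812871: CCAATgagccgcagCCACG
ERO1B, chr1:236282183-236282201: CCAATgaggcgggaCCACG
XBP1, chr22:28800603-28800621: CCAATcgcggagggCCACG
CRELD2, chr22:49918554-49918572: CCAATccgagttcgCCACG
The ERSE-II sites, in the same form, follow.
HYOU1, chr11:119057380-119057390: ATTGGaCCACG
HYOU1, chr11:119057274-119057284: ATTGGaCCACG
SDF2L1, chr22:21642114-21642124: ATTGGtCCACG

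The 250 bases before the transcript start are printed for 4 members, because their readouts below span the main roles: HSPA5 (the ER HSP70), HSP90B1 (the ER HSP90), HYOU1 (with 2 ERSE-II matches) and XBP1 (the transcription factor). They read 5′ to 3′ on the strand of the gene, capitals mark each whole match, and a match on the opposite strand therefore appears as its reverse complement.
HSPA5, chr9:125241344-125241593, minus strand: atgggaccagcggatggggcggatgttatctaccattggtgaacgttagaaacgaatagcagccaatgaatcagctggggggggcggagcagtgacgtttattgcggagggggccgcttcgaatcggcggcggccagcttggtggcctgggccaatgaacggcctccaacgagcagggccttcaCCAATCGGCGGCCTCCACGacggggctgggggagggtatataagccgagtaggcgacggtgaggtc
HSP90B1, chr12:103930160-103930409, plus strand: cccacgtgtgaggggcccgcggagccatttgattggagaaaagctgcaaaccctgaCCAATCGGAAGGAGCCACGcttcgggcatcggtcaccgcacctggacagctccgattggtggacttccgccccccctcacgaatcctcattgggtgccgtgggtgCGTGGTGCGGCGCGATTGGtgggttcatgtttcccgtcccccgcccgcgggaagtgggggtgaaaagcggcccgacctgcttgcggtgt
HYOU1, chr11:119057206-119057455, minus strand: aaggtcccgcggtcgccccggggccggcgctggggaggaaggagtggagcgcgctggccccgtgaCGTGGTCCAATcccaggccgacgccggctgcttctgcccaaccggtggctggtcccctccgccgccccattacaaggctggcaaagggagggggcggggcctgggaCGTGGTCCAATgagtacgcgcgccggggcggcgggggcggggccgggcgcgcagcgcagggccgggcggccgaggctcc
XBP1, chr22:28800570-28800819, minus strand: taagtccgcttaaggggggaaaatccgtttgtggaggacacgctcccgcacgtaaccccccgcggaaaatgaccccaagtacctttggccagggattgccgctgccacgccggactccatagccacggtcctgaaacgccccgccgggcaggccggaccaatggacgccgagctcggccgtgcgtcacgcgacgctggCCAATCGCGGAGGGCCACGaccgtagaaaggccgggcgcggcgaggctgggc
The XBP1 site began 52 bases before the transcript start and the HSPA5 site 66 bases before it. The HSP90B1 sites began 194 and 89 bases before the start, on opposite strands, and the HYOU1 sites 185 and 79 bases before it.

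**Figure D1:**
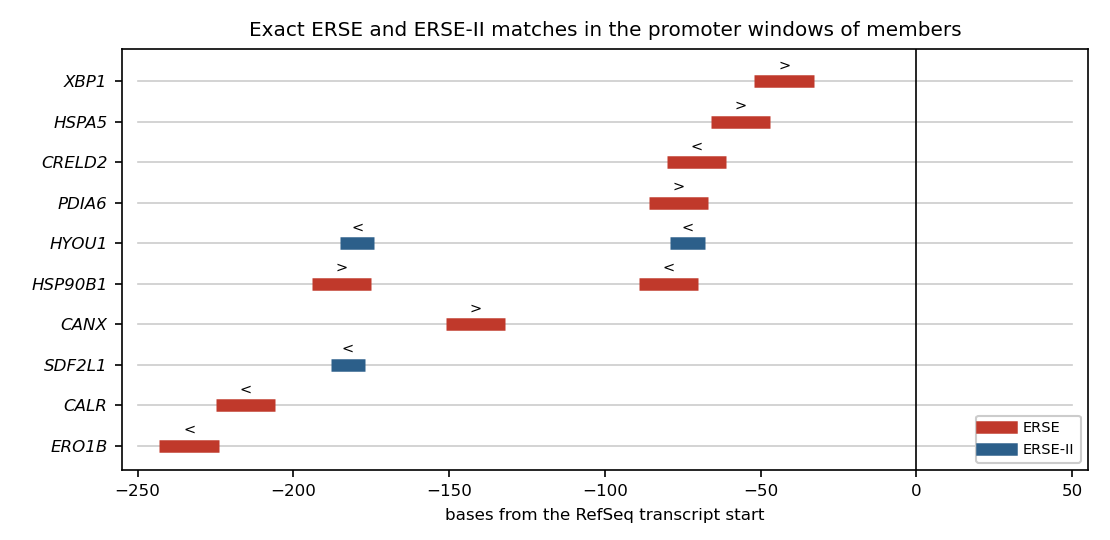
Positions of exact ERSE (red) and ERSE-II (blue) matches in the promoter windows of the 10 members that hold them, in bases from the RefSeq transcript start (x axis, start at 0), with > for a motif that reads along the gene and < for the opposite strand. For CANX, which has 3 windows with the same site, the window listed first is drawn. All matches drawn lie before the start, from 243 bases (ERO1B) to 52 bases (XBP1) upstream where they begin.

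Deposited values are read counts divided by a size factor per library, here called normalised reads, and every member had at least 37.3 of them in every library. To compare genes with each other, values were divided by the exon length in GENCODE 29 and averaged over the 16 libraries. Per kb of exon, calreticulin (CALR) had the highest level at 6725 normalised reads, with a range over libraries of 4823 to 7968. The ER HSP90 (HSP90B1) followed at 6427 per kb (4918 to 7597), and the ER HSP70 (HSPA5, also called BiP) at 5131 per kb (3010.4 to 6931). The ranges of these 3 chaperones overlapped. The disulfide isomerases PDIA4 and PDIA3 and calnexin (CANX) formed the next group, at 3236, 3166 and 3097 per kb, again with overlapping ranges. The lowest members per kb were ERN1 at 10.1 and the thioredoxin-domain protein TXNDC5 at 13. Exon length is the union over all annotated transcripts, so genes with many annotated isoforms, such as DNAJC10, come out lower on this scale.

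**Figure D2:**
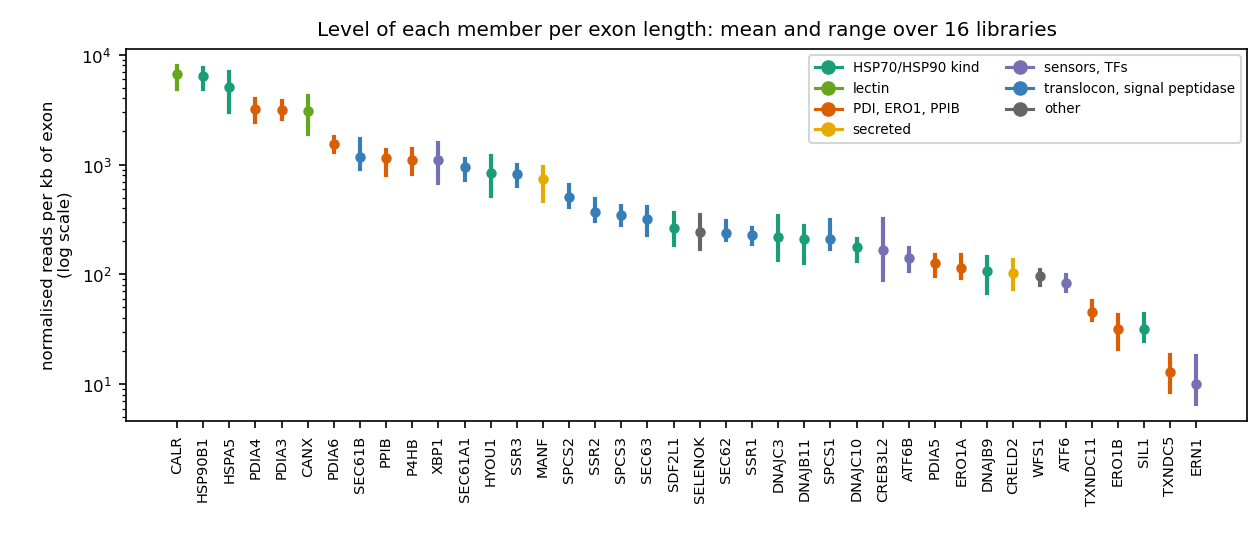
Level of each of the 40 members as normalised reads per kb of exon (y axis, log scale), with the dot at the mean and the line from the lowest to the highest of the 16 libraries, coloured by role. CALR, HSP90B1 and HSPA5 are highest, at 6725, 6427 and 5131, and ERN1 is lowest at 10.1.

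Between 14600479 and 17630329 reads per library were recovered from the deposited values. The members together held 0.853 to 1.04% of the reads in the 8 libraries without 2DG and 1.13 to 1.29% in the 8 with it. All 8 markers of human embryonic stem cells were in the table, with a summed level of 118345 to 154209 normalised reads in each library. Of the markers of other cells, 4 of 8 fibroblast or stromal genes, 5 of 6 neural genes and 3 of 7 endoderm and secretory genes were in the table, and the rest, among them COL3A1, DCN, LUM and POSTN, were not analysed here. The fibroblast sum, which includes THY1, also known on embryonic stem cells, was 3884 to 5244 normalised reads in the libraries without 2DG and 2765 to 4098 with it. The neural sum was 119.7 to 233 without 2DG and 121.8 to 233 with it, and the endoderm sum 17.8 to 70.3 without and 16.8 to 73.1 with it. The 2 E7+ActivinA libraries stood apart from each other more than any other pair, with a median absolute log2 difference of 0.26 over the members and 0.37 over all genes, against 0.044 to 0.15 over the members in the other groups. Results are therefore also given without the Activin A libraries where that moves a count. The strand setting and the annotation used for counting are not given in the sources used here, so reads of genes that overlap on opposite strands cannot be told apart. For SPCS2, SELENOK, PDIA3, HSP90B1, SEC63, SSR1, XBP1 and CALR, GENCODE 29 names pseudogenes, and their values depend on how shared reads were assigned.

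The first comparison asked how 2DG changed the members over all media, as the mean of the 4 differences between a medium with and without 2DG. Of the 40 members, 24 rose, 4 fell and 12 did not pass an adjusted p of 0.05 in limma. Of all 16714 genes tested, 38.6% passed, with 19.2% higher and 19.4% lower. The members' median change was 0.24 on the log2 scale, against a median of -0.00061 for all genes. In 24 members the estimate was above 0 in all 4 media, and in ERO1A and SPCS3 it was below 0 in all 4. In 6 members (HYOU1, CANX, PDIA4, PDIA6, P4HB and SEC63) all 8 libraries with 2DG were above all 8 without it, which held for 2.03% of all genes, and no member had the reverse, which held for 1.34% of all genes. Markers moved beside this over the mean of the media: of the 4 fibroblast or stromal genes 3 fell, PDGFRB by 0.95, THY1 by 0.43 and COL1A2 by 0.20 in log2, and of the 5 neural genes STMN2 fell, from a mean of 80.8 to 43.5 normalised reads. Of the 3 endoderm and secretory genes AFP rose by 1.40 (SE 0.45, adjusted p = 0.0237) and FOXA2 fell by 1.02, both at means under 20 normalised reads, and of the 8 stem cell markers 2 rose and 2 fell. In E7 the endoderm and secretory sum was 34.5 and 29.4 normalised reads without and 73.1 and 57.6 with 2DG. With 2DG the summed stem cell markers went from 146305 and 154209 to 128692 and 135666 in E7. In E7+NODAL they went from 125285 and 118345 to 134854 and 133167. The sums were 132038 and 131185 without and 135579 and 136698 with 2DG in E7+TGFb. In E7+ActivinA they were 149678 and 125756 without and 128548 and 120726 with it. The part of all these markers in the members' changes was not tested. These are bulk measurements, in which fewer cells of a type and less RNA per cell cannot be told apart. Of the 28 calls, 25 held in each of the 24 alternative analyses, and the calls of PDIA5, ERN1 and SEC62 did not: PDIA5 had an adjusted p of 0.0507 without replicate 2 of E7+NODAL+2DG, and scaling to the same total gave SEC62 0.0599.

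**Figure D3:**
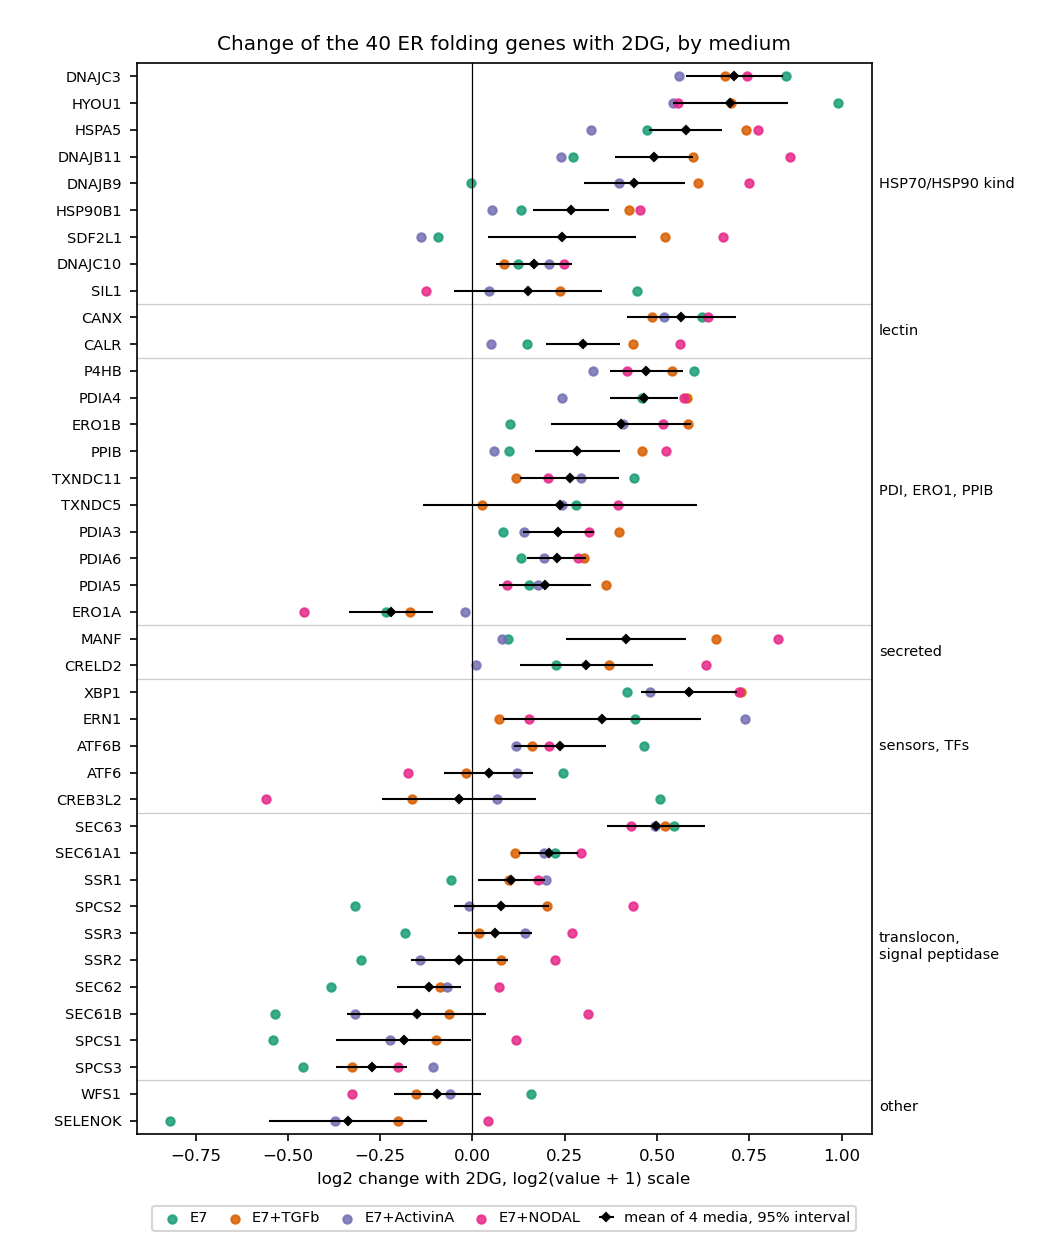
Change of each member with 2DG on the log2(value + 1) scale (x axis), grouped by role: coloured dots are the 4 media, black diamonds the mean over media with its 95% interval. The ER HSP70 and HSP90 chaperones and lectins lie mostly to the right, led by DNAJC3 at 0.71 and HYOU1 at 0.70, while translocon and signal peptidase genes spread on both sides of 0.

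Among the chaperones of the HSP70 and HSP90 kind and their cofactors, 7 of 9 rose and none fell, with a median of 0.44. HSPA5 (chr9:125234853-125241330, minus strand, GRCh38 as for all genes below, from GENCODE 29) encodes the HSP70 that binds nascent chains and holds the sensors inactive. Without 2DG, the normalised reads of HSPA5 were 17642 and 18451 in E7, 15899 and 15862 in E7+TGFb, 20224 and 17935 in E7+ActivinA and 11765 and 11802 in E7+NODAL. With 2DG, HSPA5 had 24248 and 25888 in E7+2DG, 26046 and 27085 in E7+TGFb+2DG, 22290.4 and 25402 in E7+ActivinA+2DG and 20272 and 19992 in E7+NODAL+2DG. In each medium both libraries with 2DG were above both without, and the only overlap across media was replicate 1 of E7+ActivinA against replicate 2 of E7+NODAL+2DG. The mean change of HSPA5 was 0.58 (SE 0.046, adjusted p = 1.39e-06) in log2, or 1.49-fold.

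HYOU1 (chr11:119044189-119057202, minus strand), a large HSP70-like protein that exchanges nucleotide on HSPA5, separated fully. Without 2DG, the normalised reads of HYOU1 were 4879 and 3968 in E7, 5495 and 5626 in E7+TGFb, 4488 and 6149 in E7+ActivinA and 4269.8 and 4521 in E7+NODAL. With 2DG, HYOU1 had 8620.5 and 8869 in E7+2DG, 8918 and 9172 in E7+TGFb+2DG, 6761 and 8662 in E7+ActivinA+2DG and 6679 and 6254 in E7+NODAL+2DG. Its lowest library with 2DG was replicate 2 of E7+NODAL+2DG, which still exceeded the highest library without 2DG, replicate 2 of E7+ActivinA. The mean log2 change of HYOU1 was 0.70 (SE 0.073, adjusted p = 1.19e-05).

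DNAJC3 (chr13:95677139-95794989, plus strand), a J-domain cofactor of HSPA5 also known as an inhibitor of PERK, had the largest mean change, 0.71 (SE 0.061, adjusted p = 2.84e-06) in log2, or 1.63-fold. Without 2DG, the normalised reads of DNAJC3 were 889 and 806 in E7, 963 and 947 in E7+TGFb, 1023 and 1309.8 in E7+ActivinA and 750 and 751 in E7+NODAL. With 2DG, DNAJC3 had 1552 and 1502 in E7+2DG, 1528 and 1545 in E7+TGFb+2DG, 1525 and 1905 in E7+ActivinA+2DG and 1254 and 1260.5 in E7+NODAL+2DG. It was the only member called higher in each of the 4 media, which held for 0.724% of all genes, and no member was called lower in all 4, which held for 0.0598%. Its call in E7+ActivinA was lost in 13 of the 25 alternatives, among them the fit on that medium's libraries alone (adjusted p = 0.883 in limma).

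Of the other J-domain cofactors, DNAJB11, which hands unfolded chains to HSPA5, changed by 0.49 (SE 0.049, adjusted p = 8.36e-06) in log2. DNAJB9, which represses IRE1 and takes part in degradation, changed by 0.44 (SE 0.064, adjusted p = 0.000163), although its level in E7 was 311 and 311 normalised reads without 2DG and 297 and 324 with it. DNAJC10, a disulfide reductase with a J domain, changed by 0.17 (SE 0.048, adjusted p = 0.0149). HSP90B1 changed by 0.27 (SE 0.048, adjusted p = 0.000784), with 2DG libraries above their controls in E7, E7+TGFb and E7+NODAL and overlapping them in E7+ActivinA. SDF2L1, a partner of DNAJB11, had a mean log2 difference of 0.24 (SE 0.094, adjusted p = 0.0553) and the nucleotide exchange factor SIL1 0.15 (SE 0.094, adjusted p = 0.223), and neither passed. The estimate of SDF2L1 ranged from -0.14 in E7+ActivinA to 0.68 in E7+NODAL.

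Both lectin chaperones rose. CANX (chr5:179678628-179730925, plus strand), the membrane lectin that holds monoglucosylated glycoproteins, was measured at 17593 and 15306 in E7, 18619 and 18312 in E7+TGFb, 13009 and 17956 in E7+ActivinA and 11774 and 12431 in E7+NODAL, in normalised reads without 2DG. With 2DG, CANX had 25088 and 25448 in E7+2DG, 25587 and 26123 in E7+TGFb+2DG, 19568 and 24492 in E7+ActivinA+2DG and 18713 and 18923 in E7+NODAL+2DG. All libraries with 2DG exceeded all without, and the mean log2 change was 0.57 (SE 0.069, adjusted p = 4.05e-05). CALR, its soluble counterpart, changed by 0.30 (SE 0.047, adjusted p = 0.000273), with overlapping libraries in E7+ActivinA.

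Of the 10 disulfide isomerases, oxidases and the prolyl isomerase PPIB, 8 rose and 1 fell. P4HB (chr17:81843159-81860694, minus strand), the classical protein disulfide isomerase and a subunit of prolyl 4-hydroxylase, was measured at 4597 and 4312 in E7, 4805 and 4766 in E7+TGFb, 5459.9 and 5438 in E7+ActivinA and 5101 and 4581 in E7+NODAL, in normalised reads without 2DG. With 2DG, P4HB had 6475 and 7038 in E7+2DG, 6944 and 6985 in E7+TGFb+2DG, 6339 and 7361 in E7+ActivinA+2DG and 6622 and 6299 in E7+NODAL+2DG. The 2 sets of libraries did not overlap, and the mean log2 change was 0.47 (SE 0.046, adjusted p = 7.5e-06). PDIA4 changed by 0.46 (SE 0.043, adjusted p = 4.83e-06) and PDIA6 by 0.23 (SE 0.037, adjusted p = 0.000397), also without overlap. PDIA3, the isomerase that works with CANX and CALR, changed by 0.23 (SE 0.044, adjusted p = 0.00112), and PDIA5 by 0.20 (SE 0.058, adjusted p = 0.017). PPIB changed by 0.28 (SE 0.053, adjusted p = 0.00106) and the thioredoxin-domain protein TXNDC11 by 0.26 (SE 0.063, adjusted p = 0.00476). TXNDC5, the least abundant isomerase, had 0.24 (SE 0.17, adjusted p = 0.3).

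The 2 ERO1 oxidases, which reoxidise the isomerases, moved in opposite directions. ERO1B changed by 0.40 (SE 0.088, adjusted p = 0.00295) in log2, and ERO1A (chr14:52639916-52695900, minus strand) fell by 0.22 (SE 0.053, adjusted p = 0.00494). Without 2DG, the normalised reads of ERO1A were 900 and 874 in E7, 867 and 870.4 in E7+TGFb, 770.2 and 886 in E7+ActivinA and 1064 and 1136 in E7+NODAL. With 2DG, ERO1A had 815 and 696 in E7+2DG, 798 and 746 in E7+TGFb+2DG, 774 and 856 in E7+ActivinA+2DG and 808 and 794 in E7+NODAL+2DG. Its highest libraries were the pair in E7+NODAL, and in E7+ActivinA the libraries with and without 2DG overlapped.

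Both stress-secreted proteins rose. MANF, a secreted factor that binds HSPA5 in the ER, changed by 0.42 (SE 0.076, adjusted p = 0.000822) in log2, and CRELD2, a secreted isomerase-like protein, by 0.31 (SE 0.083, adjusted p = 0.0101). MANF had 1669 and 1816 in E7, 1315 and 1251 in E7+TGFb, 2276 and 1497 in E7+ActivinA and 1299 and 1116 in E7+NODAL, in normalised reads without 2DG. With 2DG, MANF had 1747 and 1986 in E7+2DG, 1978 and 2074 in E7+TGFb+2DG, 1973 and 1931 in E7+ActivinA+2DG and 2206 and 2073 in E7+NODAL+2DG. The pairs with 2DG were above their controls in E7+TGFb and E7+NODAL and overlapped them in E7 and E7+ActivinA.

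Of the 5 sensors and transcription factors, 3 rose and none fell. XBP1 (chr22:28794555-28800597, minus strand), the transcription factor downstream of IRE1, was measured at 2913 and 3141 in E7, 2518 and 2353 in E7+TGFb, 3421 and 2694 in E7+ActivinA and 2088 and 2066 in E7+NODAL, in normalised reads without 2DG. With 2DG, XBP1 had 3824 and 4282 in E7+2DG, 4070.1 and 3989 in E7+TGFb+2DG, 3819 and 4708 in E7+ActivinA+2DG and 3312 and 3542 in E7+NODAL+2DG. In every medium both libraries with 2DG were higher, and the mean log2 change was 0.59 (SE 0.061, adjusted p = 1.15e-05). These are counts per gene, which do not show whether the XBP1 mRNA was spliced. ERN1 changed by 0.35 (SE 0.13, adjusted p = 0.0399) at a low level of 71.3 to 195.6 normalised reads, and its call was lost in 12 of the 24 alternatives. ATF6B, a relative of ATF6, changed by 0.24 (SE 0.058, adjusted p = 0.00551). ATF6 itself had 0.044 (SE 0.057, adjusted p = 0.569), and CREB3L2, an ER-bound transcription factor of the same cleavage type, -0.036 (SE 0.097, adjusted p = 0.795). CREB3L2 had 1049 and 779 in E7, 1320 and 1339.8 in E7+TGFb, 1654 and 2820.1 in E7+ActivinA and 1378 and 1594 in E7+NODAL, in normalised reads without 2DG. With 2DG, CREB3L2 had 1401 and 1183 in E7+2DG, 1179 and 1196 in E7+TGFb+2DG, 2223 and 2303 in E7+ActivinA+2DG and 1014 and 997 in E7+NODAL+2DG. Its pairs were higher with 2DG in E7, lower in E7+TGFb and E7+NODAL, and overlapped in E7+ActivinA.

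The 10 translocon and signal peptidase genes did not move together: 2 rose, 2 fell, and the median was 0.013. SEC63, which recruits HSPA5 to the translocon, rose by 0.50 (SE 0.061, adjusted p = 4.59e-05) in log2. Without 2DG, the normalised reads of SEC63 were 2368 and 2283 in E7, 2385 and 2426 in E7+TGFb, 1944 and 2203 in E7+ActivinA and 2175 and 2268 in E7+NODAL. With 2DG, SEC63 had 3523 and 3271 in E7+2DG, 3526 and 3377 in E7+TGFb+2DG, 2476 and 3429 in E7+ActivinA+2DG and 3005 and 2982 in E7+NODAL+2DG. All 8 libraries with 2DG were above all 8 without, and the lowest of them was replicate 1 of E7+ActivinA+2DG. The channel subunit SEC61A1 rose by 0.21 (SE 0.037, adjusted p = 0.000748). SEC62, another partner of the channel, fell by 0.12 (SE 0.040, adjusted p = 0.0341), a call lost in 10 of the 24 alternatives. SPCS3 (chr4:176319964-176332245, plus strand), a signal peptidase subunit, fell by 0.27 (SE 0.045, adjusted p = 0.000416). Without 2DG, the normalised reads of SPCS3 were 2690.3 and 2880.3 in E7, 2482 and 2444 in E7+TGFb, 2298 and 2623 in E7+ActivinA and 2611 and 2847 in E7+NODAL. With 2DG, SPCS3 had 1976 and 2072 in E7+2DG, 1929 and 1998 in E7+TGFb+2DG, 2361 and 2204 in E7+ActivinA+2DG and 2309 and 2436 in E7+NODAL+2DG. It was lower with 2DG in both libraries of E7, E7+TGFb and E7+NODAL and overlapped in E7+ActivinA. The channel subunit SEC61B, the translocon-associated SSR1, SSR2 and SSR3 and the signal peptidase subunits SPCS1 and SPCS2 did not pass, with mean log2 differences from -0.19 (SPCS1) to 0.11 (SSR1). SEC61B had 1522 and 1906 in E7, 1252 and 1270.4 in E7+TGFb, 2049 and 1326 in E7+ActivinA and 1292 and 1093 in E7+NODAL, in normalised reads without 2DG. With 2DG, SEC61B had 1142 and 1210.3 in E7+2DG, 1199 and 1213 in E7+TGFb+2DG, 1485 and 1176 in E7+ActivinA+2DG and 1430.1 and 1522 in E7+NODAL+2DG. Its pairs were lower with 2DG in E7 and E7+TGFb, higher in E7+NODAL, and overlapped in E7+ActivinA.

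SELENOK (chr3:53884410-53891988, minus strand), an ER selenoprotein that takes part in degradation, fell by 0.34 (SE 0.10, adjusted p = 0.0163) in log2. SELENOK had 662 and 724 in E7, 474 and 546 in E7+TGFb, 752 and 499 in E7+ActivinA and 575 and 469 in E7+NODAL, in normalised reads without 2DG. With 2DG, SELENOK had 370.1 and 414 in E7+2DG, 408 and 479.7 in E7+TGFb+2DG, 574 and 390.1 in E7+ActivinA+2DG and 522 and 548 in E7+NODAL+2DG. The difference between group means was largest in E7, where the pairs did not overlap, and the pairs overlapped in the other 3 media. WFS1, the ER membrane protein mutated in Wolfram syndrome, had -0.10 (SE 0.055, adjusted p = 0.188).

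**Figure D4:**
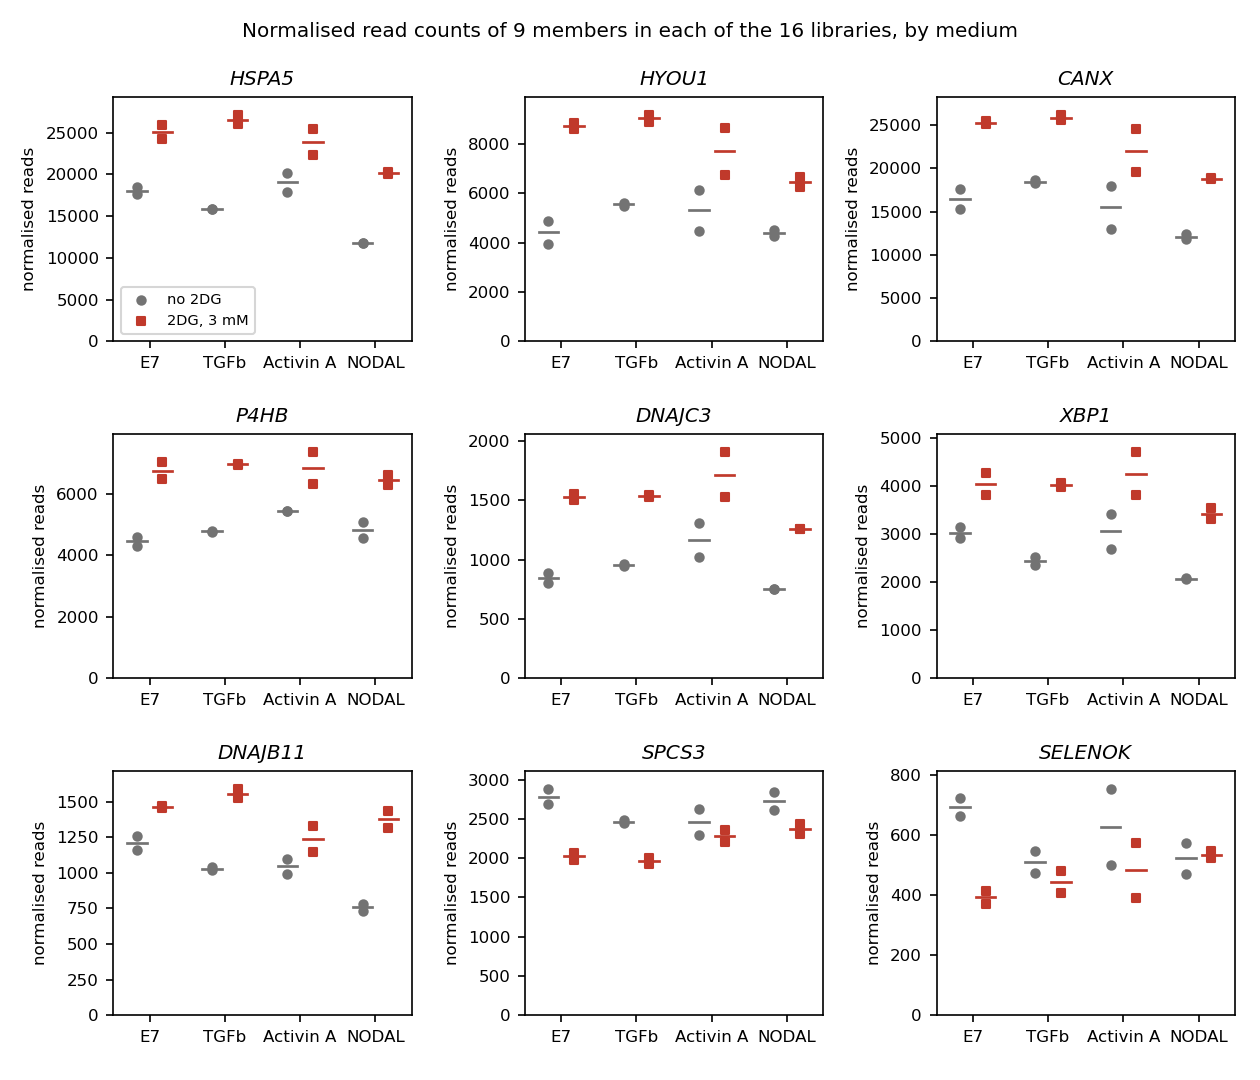
Normalised reads of 9 members in each library (y axes from 0), by medium (x axes), without 2DG in grey and with 2DG at 3 mM in red, with bars at the means of 2 libraries. HYOU1, CANX and P4HB separate fully between the 8 red and 8 grey libraries, and SPCS3 and SELENOK are highest among the grey ones.

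Taken medium by medium, the number of members past the threshold varied. In E7, 11 members rose and 5 fell, against 14.6% and 14.8% of all genes and 29.4% in either direction. In E7+TGFb, 16 rose and 1 fell, against 5.47% and 4.37%, or 9.84% in either direction. In E7+NODAL, 18 rose and 1 fell, against 3.11% and 2.76%, or 5.88% in either direction. In E7+ActivinA 1 rose and none fell, against 1.48% and 0.221%, or 1.7% in either direction. In that medium 17 members had an unadjusted p under 0.05 in limma, and the share of all genes at that threshold was not counted. DESeq2 called 7 higher there, against 3.6% of all genes in either direction. Without replicate 2 of E7+ActivinA 9 rose and 4 fell there, which is 13 of 40 members beside 33.4% of all genes called in that fit. Without replicate 1 of E7+ActivinA+2DG 9 rose and none fell, beside 9.72% of all genes. The median changes were 0.15, 0.27, 0.31 and 0.14 on the log2 scale in E7, E7+TGFb, E7+NODAL and E7+ActivinA. Without the 4 Activin A libraries in the fit, 16 rose and 9 fell in E7, beside 46% of all genes, and 25 rose and 4 fell in E7+NODAL, beside 20.6%. Leaving out any 1 of the 4 libraries of the comparison reduced the count to between 6 and 7 in E7+TGFb, beside 2.22 to 2.41% of all genes, and to between 5 and 8 in E7+NODAL, beside 0.983 to 1.51%. In E7, leaving out replicate 2 of E7 gave 5 higher and 2 lower, beside 9.54% of all genes. Without replicate 1 of E7+2DG 8 rose and 2 fell in E7, and without its replicate 2 7 rose and 3 fell, beside 13.6% and 16.4%.

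Called higher in E7, E7+TGFb and E7+NODAL alike were 7 members: HSPA5, HYOU1, CANX, PDIA4, P4HB, DNAJC3 and XBP1, which held for 1.61% of all genes, and no member was called lower in all 3, which held for 1.02%. Of the 7, only HSPA5, PDIA4 and DNAJC3 kept the call in each of the 26 alternatives in all 3 media. HYOU1, CANX, P4HB and XBP1 lost a call in some of them. In E7 the members that fell were SELENOK, by 0.82 in log2, SPCS1 by 0.54, SEC61B by 0.53, SPCS3 by 0.46 and SEC62 by 0.38. Without replicate 2 of E7, SEC62 and SPCS3 still passed, SELENOK had an adjusted p of 0.075 in limma, SPCS1 a fall of 0.36 (adjusted p = 0.265) and SEC61B a fall of 0.37 (adjusted p = 0.269). For SEC62 the E7 pair was 2432 and 2251 normalised reads without and 1859 and 1733 with 2DG. ATF6B with 0.47 (SE 0.12, adjusted p = 0.00947) and TXNDC11 with 0.44 (SE 0.13, adjusted p = 0.0189) also passed in E7. In the other 3 media their estimates were 0.12 to 0.21 for ATF6B and 0.12 to 0.29 for TXNDC11. No difference between those media and E7 passed in limma for either gene, with smallest adjusted p of 0.331 and 0.425.

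In E7+NODAL the largest changes with 2DG were those of DNAJB11 with 0.86 (SE 0.098, adjusted p = 0.00034), MANF with 0.83 (SE 0.15, adjusted p = 0.00696), HSPA5 with 0.77 (SE 0.092, adjusted p = 0.000498) and DNAJB9 with 0.75 (SE 0.13, adjusted p = 0.00432). DNAJB11 had 779.6 and 734 normalised reads in E7+NODAL and 1434 and 1318 in E7+NODAL+2DG. SDF2L1 with 0.68 (SE 0.19, adjusted p = 0.0486), CRELD2 with 0.63 (SE 0.17, adjusted p = 0.0411) and SPCS2 with 0.44 (SE 0.12, adjusted p = 0.0486) also passed. With the replicate number as a block, the calls of SDF2L1 (adjusted p = 0.0652), CRELD2 (0.0561), SPCS2 (0.0663), PDIA6 (0.0543) and SEC61A1 (0.051) in this medium were lost. As differences from the change in E7, SDF2L1 had 0.77 (SE 0.26, adjusted p = 0.0927) and CRELD2 0.41 (SE 0.24, adjusted p = 0.292), and SPCS2 is taken up with the interactions. ERO1A was the member that fell there, by 0.46 (SE 0.11, adjusted p = 0.0231). In E7+TGFb the largest changes were those of HSPA5 with 0.74 (SE 0.092, adjusted p = 0.000455), XBP1 with 0.73 (SE 0.12, adjusted p = 0.00274), HYOU1 with 0.70 (SE 0.15, adjusted p = 0.0091) and DNAJC3 with 0.69 (SE 0.12, adjusted p = 0.00414), and the member that fell was SPCS3, by 0.33 (SE 0.090, adjusted p = 0.0361).

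Trends with exon length and a possible sign of RNA quality varied beside these results. Over all 16335 genes with a length, Spearman's correlation of exon length with the change was 0.31 in E7, 0.32 in E7+ActivinA, 0.0058 in E7+TGFb and -0.11 in E7+NODAL, and over the 40 members it was 0.21, 0.28, -0.28 and -0.38. For the comparisons with NODAL that follow, it was 0.22 over all genes and 0.34 over the members for NODAL in E7, -0.31 and -0.50 for NODAL in the presence of 2DG, and -0.38 and -0.47 for the difference between the changes with 2DG in E7+NODAL and E7. For TGFb in E7 it was 0.42 and 0.49, and for Activin A in E7 0.13 and -0.13. The summed level of 6 histone genes that mostly lack poly(A) tails was taken as a possible sign of RNA selection and quality. It was 353 and 420 normalised reads in E7, 199 and 244 in E7+2DG, 295 and 241 in E7+TGFb and 224 and 214 in E7+TGFb+2DG. It was 426 and 292 in E7+ActivinA, 329 and 226 in E7+ActivinA+2DG, 221 and 214 in E7+NODAL and 288 and 245 in E7+NODAL+2DG. The part of exon length and of these histone genes in the results was not tested. Genes share libraries and are not replicates, so these correlations are descriptions.

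Next the ligands were compared with E7 in the absence of 2DG. These 3 comparisons share the E7 libraries. With NODAL, 3 members rose and 18 fell, against 10.6% and 10.9% of all genes (21.5% in either direction), and the median change was -0.34. HSPA5 had 17642 and 18451 normalised reads in E7 and 11765 and 11802 in E7+NODAL, a fall of 0.61 (SE 0.092, adjusted p = 0.00108) in log2. DNAJB11 had 1163 and 1259.5 in E7 and 779.6 and 734 in E7+NODAL, and fell by 0.68 (SE 0.098, adjusted p = 0.000932). DNAJB9 had 311 and 311 in E7 and 191 and 207 in E7+NODAL, and fell by 0.64 (SE 0.13, adjusted p = 0.00455). In these 3 chaperone genes both E7+NODAL libraries were also the lowest of all 16. Beside this, the summed stem cell markers were 146305 and 154209 in E7 and 125285 and 118345 in E7+NODAL, and the fibroblast sum 4260 and 4224 against 5244 and 5006. Their part in the members' changes was not tested.

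By role, 5 of 9 chaperones of the HSP70 and HSP90 kind fell with NODAL, both lectins did, 1 of the 2 stress-secreted proteins did, and 7 of the 10 translocon and signal peptidase genes did. SPCS2 had 1809 and 1943 normalised reads in E7 and 1213 and 1229 in E7+NODAL, and fell by 0.62 (SE 0.12, adjusted p = 0.004). SSR3 fell by 0.56 (SE 0.093, adjusted p = 0.00187) and SEC62 by 0.52 (SE 0.081, adjusted p = 0.00135). Among the isomerases, PPIB fell by 0.44 (SE 0.11, adjusted p = 0.0118) and PDIA3 by 0.28 (SE 0.088, adjusted p = 0.0369). XBP1 fell by 0.54 (SE 0.12, adjusted p = 0.00812), while 2 other transcription factors rose: ATF6B by 0.40 (SE 0.12, adjusted p = 0.0265) and CREB3L2 by 0.71 (SE 0.19, adjusted p = 0.0207). WFS1 rose by 0.37 (SE 0.11, adjusted p = 0.0308). HYOU1, with 4879 and 3968 normalised reads in E7 and 4269.8 and 4521 in E7+NODAL, had a difference of -0.0022 (95% interval -0.31 to 0.31), P4HB one of 0.12 (SE 0.092, adjusted p = 0.384) and PDIA4 one of -0.12 (SE 0.086, adjusted p = 0.344).

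In 19 members both E7+NODAL libraries were the lowest of the 16, which held for 4.24% of all genes, and in 24 members E7+NODAL had the lowest group mean, which held for 14.3% of all genes. The same E7+NODAL libraries enter the changes with 2DG in E7+NODAL above. They also enter the spread over media without 2DG and the NODAL interaction below, so these results are not independent. Scaling every library to the same total shifted the median of all genes by 0.12 in this comparison and gave 4 members higher and 10 lower. Only HSPA5, DNAJB9, DNAJB11, SEC62 and SSR3 kept their call in each of the 26 alternatives. Without replicate 2 of E7 none rose and 6 fell, beside 5.02% of all genes called in either direction, and without replicate 1 or 2 of E7+NODAL, 10 or 6 fell and none rose, beside 9.34% or 5.25%.

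**Figure D5:**
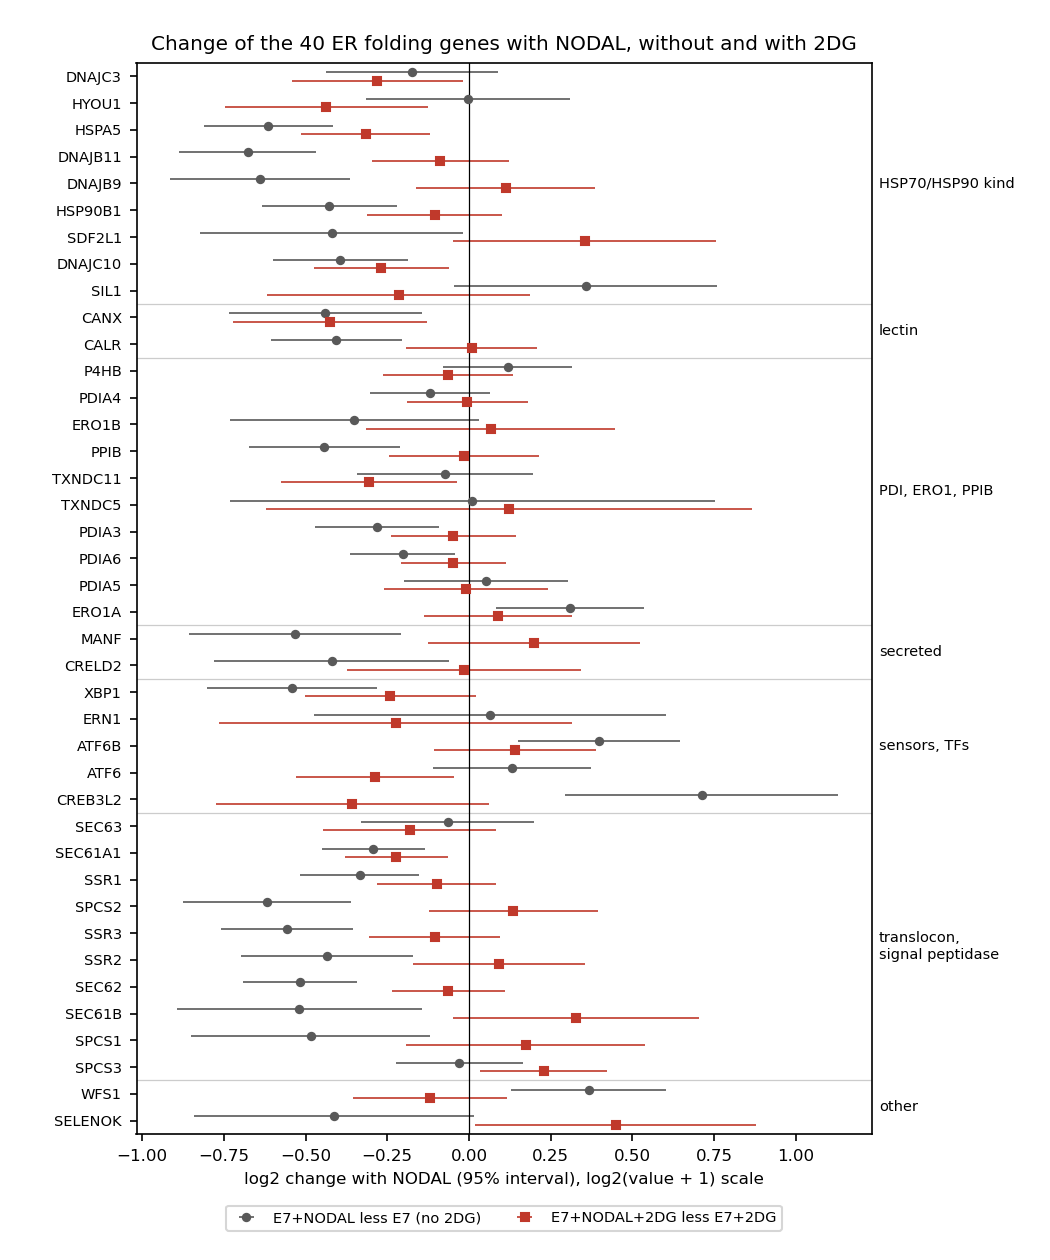
Change of each member with NODAL on the log2(value + 1) scale (x axis, 95% intervals), grouped by role: grey circles compare E7+NODAL with E7, red squares E7+NODAL+2DG with E7+2DG. Most grey circles of chaperones, lectins and translocon genes lie to the left of 0, down to -0.68 for DNAJB11, and for many of them the red squares lie closer to 0.

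With Activin A, 2 members rose and 1 fell, against 5.28% and 4.74% of all genes, or 10% in either direction. CREB3L2 had 1049 and 779 normalised reads in E7 and 1654 and 2820.1 in E7+ActivinA, a log2 change of 1.25 (SE 0.19, adjusted p = 0.000968). The 2 E7+ActivinA libraries of CREB3L2 differed widely but both exceeded both E7 libraries. DNAJC3 rose by 0.45 (SE 0.12, adjusted p = 0.0326) and SEC62 fell by 0.32 (SE 0.081, adjusted p = 0.0239). Fitted on the 4 libraries of this comparison alone, none of the 3 passed. Without replicate 1 or 2 of E7 only 1 member rose and none fell, beside 6% or 3.85% of all genes. Without replicate 1 of E7+ActivinA 5 rose and 8 fell, which is 13 of 40 beside 28.5% of all genes, and without its replicate 2 4 rose and 2 fell, which is 6 of 40 beside 15.2%. With TGFb, no member passed in limma, edgeR or DESeq2, and neither did any of all genes in limma (0%). The smallest adjusted p of a member was 0.154 in limma, 21 members had an unadjusted p under 0.05, and the median change was -0.18. The share of all genes at that unadjusted threshold was not counted, so the 21 are not a result about the members alone. In the fit without the Activin A libraries, 5 members rose and 17 fell with TGFb, beside 26.7% of all genes called in either direction, and on the 4 libraries of the comparison alone 2 rose and 10 fell, beside 15.2%.

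In the presence of 2DG the same ligands were compared with E7+2DG, whose libraries these comparisons share. With TGFb no member passed in limma, edgeR or DESeq2 (0% of all genes in limma), and 1 member had an unadjusted p under 0.05. With NODAL no member passed in those 3 tools, against 0.634% of all genes in limma (0.425% higher, 0.209% lower), and 10 had an unadjusted p under 0.05. Shares of all genes at that unadjusted threshold were not counted. In the fit without the Activin A libraries, members did pass with NODAL in the presence of 2DG, with the count in the closing section. Without replicate 1 or 2 of E7+ActivinA in the fit, 5 members fell with NODAL and none rose, beside 10.6% or 10.5% of all genes. With Activin A 1 member passed, against 7.52% of all genes (4.27% higher, 3.25% lower): CREB3L2, with 1401 and 1183 normalised reads in E7+2DG and 2223 and 2303 in E7+ActivinA+2DG, rose by 0.81 (SE 0.19, adjusted p = 0.0188) in log2, a call lost without any 1 of these 4 libraries. HSPA5 had 24248 and 25888 in E7+2DG and 20272 and 19992 in E7+NODAL+2DG, which did not overlap but gave -0.32 (SE 0.092, adjusted p = 0.138). DNAJB11 had 1453 and 1469 in the first and 1434 and 1318 in the second, with a difference of -0.088 (SE 0.098, adjusted p = 0.65).

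The spread of the group means over the 4 media, as the log2 distance from the lowest to the highest, had a median of 0.43 over the members without 2DG and 0.25 with it, against 0.51 and 0.40 over all genes. It was smaller with 2DG in 33 of 40 members and in 65.0% of all genes. For HSPA5 it went from 0.70 without to 0.40 with 2DG. HYOU1 was among the 7 in which it was not smaller.

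Whether the change with 2DG itself differed between a ligand medium and E7 was tested as an interaction, in which a positive value means a more positive change with the ligand. For NODAL, 2 members passed and both were positive, against 0.987% of all genes higher, 0.885% lower and 1.87% in either direction. The difference for SPCS2 was 0.75 (SE 0.17, adjusted p = 0.0457): in E7 its normalised reads went from 1809 and 1943 without 2DG to 1480.2 and 1528 with it, and in E7+NODAL from 1213 and 1229 to 1702 and 1604. The difference for DNAJB11 was 0.59 (SE 0.14, adjusted p = 0.049), from 1163 and 1259.5 to 1453 and 1469 in E7 and from 779.6 and 734 to 1434 and 1318 in E7+NODAL. DNAJB9 had a difference of 0.75 (SE 0.18, adjusted p = 0.051), CREB3L2 -1.07 (SE 0.27, adjusted p = 0.0535) and SEC62 0.45 (SE 0.11, adjusted p = 0.0534). The calls of SPCS2 and DNAJB11 were lost with the replicate number as a block, with adjusted p of 0.0651 and 0.0684 in limma, and without replicate 2 of E7, with 0.215 and 0.227. Leaving out any 1 library of E7+2DG, E7+TGFb, E7+TGFb+2DG, E7+NODAL or E7+NODAL+2DG also left no member and no gene called. Without replicate 1 or 2 of E7+ActivinA 19 members passed, beside 23.4% or 23.3% of all genes, and without either one of E7+ActivinA+2DG 4 did, beside 5.14% or 5.31%. For TGFb no member passed in limma, edgeR or DESeq2 (0% of all genes in limma), and 13 had an unadjusted p under 0.05. For Activin A no member passed in those 3 tools either, against 0.0419% of all genes in limma, and 5 had an unadjusted p under 0.05. The share of all genes at that unadjusted threshold was not counted. In the fit without the Activin A libraries, members did pass for both the TGFb and the NODAL interaction, with counts in the closing section. The absence of calls for TGFb therefore depends on which libraries set the spread.

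The neighbouring parts of the response were followed in lists that hold no member, with the mean change over media, for which 19.2% of all genes were higher and 19.4% lower. All 12 genes of the PERK and ATF4 arm rose with 2DG, with a median of 1.51 in log2: the transcription factor DDIT3 by 3.26 (SE 0.21, adjusted p = 3.96e-07), the glutathione-degrading CHAC1 by 2.71 (SE 0.16, adjusted p = 1.18e-07), the pseudokinase TRIB3 by 2.34 (SE 0.17, adjusted p = 7.62e-07) and asparagine synthetase ASNS by 1.77 (SE 0.11, adjusted p = 1.5e-07). Of 20 genes of ER-associated degradation, 11 rose and 1 fell, among them HERPUD1, a scaffold of the degradation complex, by 1.37 (SE 0.089, adjusted p = 3.64e-07), the ubiquitin ligase SYVN1 by 0.70 (SE 0.057, adjusted p = 1.84e-06) and EDEM1, which trims mannose, by 0.68 (SE 0.098, adjusted p = 0.000151). Of 15 genes of N-glycan transfer and glucose trimming, 10 rose and 2 fell: the glucosidase II subunit PRKCSH rose by 0.62 (SE 0.057, adjusted p = 4.52e-06) and the transferase subunit STT3A by 0.48 (SE 0.044, adjusted p = 4.92e-06), while the small subunits DAD1 and OST4 changed by -0.46 and -0.45. ER to Golgi transport gave 6 higher and 3 lower of 20, and other translocation, signal peptidase and folding genes 5 higher and 7 lower of 25. Chaperones of the cytosol and mitochondria went mostly the other way over the mean of the media, with 1 of 14 higher and 11 lower and a median of -0.22. The mitochondrial HSPA9 rose by 0.56 (SE 0.054, adjusted p = 6.46e-06) and the cytosolic HSP90AA1 changed by -0.52 (SE 0.052, adjusted p = 8.34e-06). This did not hold in every medium. In E7+NODAL the cytosolic HSPA8 rose with 2DG by 0.39 (SE 0.11, adjusted p = 0.0484 in limma) and HSPA9 by 0.65. No other of the 14 passed there, where 3.11% of all genes rose and 2.76% fell. With NODAL in E7, without 2DG, where 10.6% of all genes rose and 10.9% fell, 11 of the same 14 chaperones fell and none rose, 10 of the 25 other translocation and folding genes fell and 1 rose, and of the PERK and ATF4 arm 1 of 12 fell and none rose.

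Members with and without the promoter elements were set side by side, as counts only. Of all genes, 19.2% rose and 19.4% fell with 2DG over the mean of the media. The shares were 14.6% and 14.8% in E7, 5.47% and 4.37% in E7+TGFb, and 3.11% and 2.76% in E7+NODAL. They were 1.48% and 0.221% in E7+ActivinA, and 10.6% and 10.9% with NODAL in E7 without 2DG. Of the 10 members with an ERSE or ERSE-II match, 9 rose with 2DG over the mean of the media and none fell, with a median of 0.36 in log2 and a range of 0.23 to 0.70. SDF2L1 was the exception. Of the 28 with a window but no match, 14 rose and 4 fell, with a median of 0.18 and a range of -0.34 to 0.71. In E7+NODAL, 9 of the 10 rose, with a median of 0.60, and of the 28 without a match 9 rose and 1 fell, with a median of 0.24. Of those 9 with a match, only HSPA5 kept the call in each of the 26 alternatives. SDF2L1, PDIA6, CRELD2 and HYOU1 lost it in 15, 14, 11 and 11 of them, and PDIA6, SDF2L1 and CRELD2 also with the replicate block. Of the 9 without a match that rose, PDIA4, DNAJB11 and DNAJC3 kept the call in all of them. In E7+TGFb, 7 of the 10 rose and none fell, and 8 of the 28 rose and 1 fell, with medians of 0.50 and 0.11. In E7+ActivinA, none of the 10 and 1 of the 28 rose, with medians of 0.26 and 0.13. In E7, 4 of the 10 and 7 of the 28 rose, and 4 of the 28 fell, with medians of 0.19 and 0.16. With NODAL in E7 without 2DG, 5 of the 10 fell and none rose, and 12 of the 28 fell and 3 rose. DNAJC3, which had the largest mean change, held neither element in its window, and these letters missing there say nothing about a factor. No difference between the 2 sets of members was tested.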

How the data were processed

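RNA sequencing libraries of 8 groups of 2 H1 samples were used, with 16 columns of 1 deposited table. Per the submitters' processing notes the tools were Trimmomatic 0.36, STAR, featureCounts 1.5.3 and DESeq2 1.26.0 with the hg38 build, and the role of each, the annotation, the strand setting and the gene filter are not given in the sources used here. The deposited values are a signal: the authors scaled each library's gene counts by its own size factor. All values (100%) were whole multiples of what 1 read is worth in their library within a tolerance of 1e-06, so whole reads were recovered. Every gene in the table had at least 1 recovered read in each library.

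The test was limma 3.58.1 (R 4.3.3) with an intensity trend on log2(value + 1), with 8 group means over all 16 libraries, two-sided, for the 16714 genes that reached 10 in 2 or more libraries, which all 40 members did. P-values were adjusted by Benjamini-Hochberg over these genes in each contrast, and a gene is called past an adjusted p of 0.05. Log2 changes understate the change of low genes. Alternatives were TMM factors, the same total, pseudocounts of 0.5 and 8, no filter, a replicate block, the libraries of the contrast alone, no Activin A libraries, edgeR 4.0.16 and DESeq2 1.42.0 on recovered reads, and each library left out.

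The members and all lists were chosen with earlier results of these data known. Any member may be named. Members given in every library are HSPA5 and, for each role, those with the largest change for 2DG over the media or in any comparison. ERO1A and SPCS3 were added after their values were seen, and up to 4 called genes with the largest change are named per other list. Positions and union exon lengths come from GENCODE 29 (GRCh38) by symbol, for all 40 members, and promoter sequences from RefSeq (GRCh38.p14). The deviations of same-numbered libraries had a median correlation of -0.0008 over 28 pairs of groups, so replicate numbers were not used as pairs. These correlations ran from -0.39 to 0.24 and were over 0.1 in 3 pairs. In the pair of groups at -0.39, libraries with different numbers deviated alike, which the fit does not model. With 14600479 to 17630329 reads per library, counting error is small for most members. It is larger for those with the lowest means over the 16 libraries. These are TXNDC5 (57.1 normalised reads), ERN1 (110), SIL1 (127), ERO1B (172) and TXNDC11 (195).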

Additional observations from a re-analysis of the deposited data

Results flagged for a closer look

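In 2 members the change with 2DG differed between E7+NODAL and E7 by a test of that difference in limma. For DNAJB11, the J-domain cofactor, the difference was 0.59 (SE 0.14, adjusted p = 0.049). For SPCS2, the signal peptidase subunit, it was 0.75 (SE 0.17, adjusted p = 0.0457). Both estimates were positive in all 26 alternatives. Neither call held in all of them: DNAJB11 was lost with an adjusted p of 0.0568 when libraries were scaled to the same total and 0.0534 in edgeR, and both were lost with the replicate block. Over the 2 calls and the alternatives the adjusted p ran as high as 0.227, for DNAJB11 without replicate 2 of E7.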

How the results depend on the processing

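Over 126 results for single members and 3189 combinations with an alternative, 2824 stayed on the same side of the threshold, 351 lost a call and 14 gained one. No called result changed direction, and the direction of results that were not called was not followed. Counts of members called that moved by over 1.5 times were as follows. Scaling to the same total gave 2 for 2DG in E7+ActivinA and 1 for the NODAL interaction. The NODAL interaction had 1 without the filter, 1 in edgeR, 0 with the replicate block and 10 (9 higher) in DESeq2, which also gave 7 for 2DG in E7+ActivinA. The replicate block left 14 of 19 calls for 2DG in E7+NODAL and 20 of 21 for NODAL in E7, and the other counts were equal. On the libraries of the contrast alone there were 26 for 2DG in E7+TGFb, 0 in E7+ActivinA and 30 in E7+NODAL, 12 for TGFb, 0 for Activin A, 13 for NODAL with 2DG, and 8 and 19 for the TGFb and NODAL interactions. Without the Activin A libraries there were 25 for 2DG in E7 and 29 in E7+NODAL, 22 for TGFb, 12 for NODAL with 2DG, and 17 and 23 for the TGFb and NODAL interactions. These fits differ in how many libraries set the spread, and the share of all genes called moved with the fit too. That share is given above for some of the fits. The counts here are therefore not results about the members alone.

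With each library left out in turn, counts ran from 25 to 32 for the mean 2DG change, 7 to 23 in E7, 6 to 21 in E7+TGFb, 0 to 13 in E7+ActivinA and 5 to 26 in E7+NODAL. They ran from 0 to 17 for TGFb, 1 to 13 for Activin A and 6 to 27 for NODAL without 2DG, and from 0 to 0, 0 to 1 and 0 to 5 with 2DG. For the TGFb, Activin A and NODAL interactions they ran from 0 to 6, 0 to 7 and 0 to 19. Where this leaves 1 library in a group, that library is assumed to vary like the other groups. The share of all genes called also moved with the library left out, so these counts do not describe the members alone. Apart from TGFb and Activin A in the presence of 2DG, the highest counts came without a replicate of E7+ActivinA, the pair that differed most, and for TGFb either one gave 3 higher and 14 lower. Without replicate 2 of E7 the mean 2DG change gave 25 higher and 4 lower, with ERN1 lost (adjusted p = 0.0725 in limma) and SDF2L1 (0.022) and SSR1 (0.0408) gained. With 2 libraries a group, the median 95% interval of a member reached 0.25 in log2 to each side within a medium.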
